A study of Homo sapiens with 8 samples.

Results

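The list described here holds 34 genes. Part of them are targets that estradiol (E2) is known for inducing in breast cancer cells, and the others were included because they were higher with E2 on these same arrays. Cell cycle genes were kept out of the list. Of the 34, 31 were measured by a probe set of their own, among 18417 genes measured in that way. PDZK1, RET and SGK3 appeared only in probe sets that carry several gene symbols, and their signals were not analysed. Part of the list was thus chosen by the E2 minus vehicle difference in these data, so the E2 differences below are given as a description and carry no test. The change with siRNA averaged over both media does not use the averaged E2 difference and was tested.

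RNA came from T47D, an established human breast carcinoma line of luminal type that carries the estrogen receptor, and was hybridised to 8 Affymetrix arrays of the Human Gene 1.0 ST type, in 4 groups of 2. All cells were kept in steroid-deprived, phenol red-free medium with insulin for 2 days and then transfected with 200 nM siRNA, either a scrambled control or a mix of 3 siRNAs against 17β-HSD1, the product of HSD17B1, which reduces estrone to E2. After 48 h they received 1 nM E2 or ethanol vehicle for 2 days. Each siRNA was thus followed by vehicle or by E2, which makes the 4 groups, and the design asks how lowering the enzyme changes expression with and without added hormone. All 4 groups were transfected and steroid-deprived, so no group shows untransfected cells or complete serum.

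E2 binds the estrogen receptor, which then occupies regulatory DNA at estrogen response elements, a palindrome of 2 short arms, or is tethered there by other factors such as AP-1, and recruits coactivators. In breast epithelium and in luminal tumours the induced genes include cofactors of the receptor itself, signalling modifiers, channels and transporters, secreted proteins and co-chaperones. Several of them, GREB1 in particular, serve as readouts of receptor activity.

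HSD17B1, the targeted gene, lay lower on the 4 knockdown arrays, with an averaged siRNA difference of -0.56 ± 0.16 on the log2 scale (SE, 4 arrays against 4) that did not pass the threshold (limma adjusted p = 0.221). Luminal markers averaged 11.57 to 11.99 on the 8 arrays, against 7.32 to 7.74 for the 4 measured basal markers, 6.77 to 7.03 for fibroblast, 6.05 to 6.50 for immune and 6.04 to 6.43 for endothelial markers. The first vehicle array after 17β-HSD1 siRNA differed most from the rest, with a mean correlation of 0.973 with the others against 0.981 to 0.988. Array medians were 7.25 to 7.37. All values below are deposited log2 signals, and a difference of 1 is a doubling of the signal.

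RefSeq promoter windows (GRCh38.p14, from 250 bases before the transcription start to 50 after) were at hand for 25 of the 34 genes, in 38 windows. The sequences shown are the 250 bases upstream of 4 genes with large E2 differences whose window holds 1 arm of the estrogen response element (GGTCA, or TGACC on the other strand), given 5′ to 3′ along the gene with that arm in capitals. They are RBM24 (chr6:17281814-17282063, plus strand), the one member that passed the siRNA test, RAPGEFL1 (chr17:40177220-40177469, plus strand), 1 of the 3 members with the widest gap between the siRNAs, and KCTD6 (chr3:58491846-58492095, plus strand) and PXK (chr3:58333056-58333305, plus strand), which lie next but one to each other.
RBM24: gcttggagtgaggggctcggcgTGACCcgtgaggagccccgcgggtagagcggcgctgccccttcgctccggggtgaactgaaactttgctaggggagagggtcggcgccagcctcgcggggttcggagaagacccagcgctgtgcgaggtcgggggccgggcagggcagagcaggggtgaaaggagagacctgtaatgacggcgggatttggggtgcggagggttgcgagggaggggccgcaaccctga
RAPGEFL1: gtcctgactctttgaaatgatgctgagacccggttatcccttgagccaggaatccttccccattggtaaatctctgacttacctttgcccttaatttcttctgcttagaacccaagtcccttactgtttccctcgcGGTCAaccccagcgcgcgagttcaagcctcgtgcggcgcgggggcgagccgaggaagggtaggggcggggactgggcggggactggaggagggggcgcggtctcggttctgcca
KCTD6: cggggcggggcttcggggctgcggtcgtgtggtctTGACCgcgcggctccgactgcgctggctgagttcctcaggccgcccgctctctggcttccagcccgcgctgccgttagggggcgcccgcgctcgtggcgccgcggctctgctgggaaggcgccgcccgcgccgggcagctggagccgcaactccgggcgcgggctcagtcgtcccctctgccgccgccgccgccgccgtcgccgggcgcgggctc
PXK: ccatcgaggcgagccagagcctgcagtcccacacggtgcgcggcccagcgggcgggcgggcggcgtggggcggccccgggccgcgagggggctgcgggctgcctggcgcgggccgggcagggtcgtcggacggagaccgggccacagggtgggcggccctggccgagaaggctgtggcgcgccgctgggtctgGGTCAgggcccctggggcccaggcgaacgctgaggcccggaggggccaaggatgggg

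The arm starts at -228 from the transcription start in RBM24, -114 in RAPGEFL1, -215 in KCTD6 and -57 in PXK. No window of these genes holds the full palindrome GGTCANNNTGACC, which 20 of all 35116 RefSeq windows hold (0.057%), and with up to 1 mismatch it is in 0 of 38 against 0.817% of all windows. A single arm, which is part of the palindrome, is in 12 of 38 windows (31.6%) against 37.4% of all windows. The AP-1 site TGANTCA is in 1 window (2.63%) against 7.71%. The GC box, GGGCGG or CCGCCC, is in 27 windows (71.1%) against 45%. Windows of the same gene can overlap, as in PDZK1, whose windows hold the same arm. By gene the arm is in 11 of 25 and the GC box in 21 of 25, and no such share over all genes was computed. Both strands were searched, and a match describes letters only.

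E2 went with higher signal in most of the 31 genes after either siRNA. The mean over the genes was 8.48 and 8.25 on the control siRNA arrays with vehicle and 9.16 and 9.24 with E2. After 17β-HSD1 siRNA it was 8.27 and 8.29 with vehicle and 8.94 and 8.96 with E2. Averaged over the siRNAs, 29 of the 31 differences were above 0, with a median of 0.66 against -0.02 over all genes, and 9 were at least 1. In 25 genes the difference was above 0 with each siRNA in each replicate, a share not computed over all genes. For 19 genes every E2 array lay above every vehicle array (2.99% of all genes did), and 17 were called at a limma Benjamini-Hochberg adjusted p below 0.05 (1.4% of all genes). With control siRNA the median was 0.77, 27 genes had both E2 arrays above both vehicle arrays (16.7% of all genes) and 5 were called (0.0706%). That count was 10 with the replicate number as a block, 3 after a further quantile normalization, 1 with all probe sets tested, 1 without the second control vehicle array and 0 in a fit on the 4 arrays compared. After 17β-HSD1 siRNA the median was 0.61, 24 genes were separated in that way (12.6%) and 4 were called (0.282%). That count was 0 with all probe sets tested and 9 in a fit on the 4 arrays compared. The calls after 17β-HSD1 siRNA, of members and of all genes alike, did not hold when any 1 of these 4 arrays was left out. Calls over all genes moved with the setting as well. With control siRNA they numbered 13 higher, and 84 with the block, 5 after quantile normalization and 1 with all probe sets. After 17β-HSD1 siRNA they numbered 52, and 87 in the fit on the 4 arrays and 0 with all probe sets. Since E2 values chose part of the list, the counts of members describe it and test nothing about it. In bulk RNA, a larger share of responding cells and more RNA per cell cannot be told apart.

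**Figure D1:**
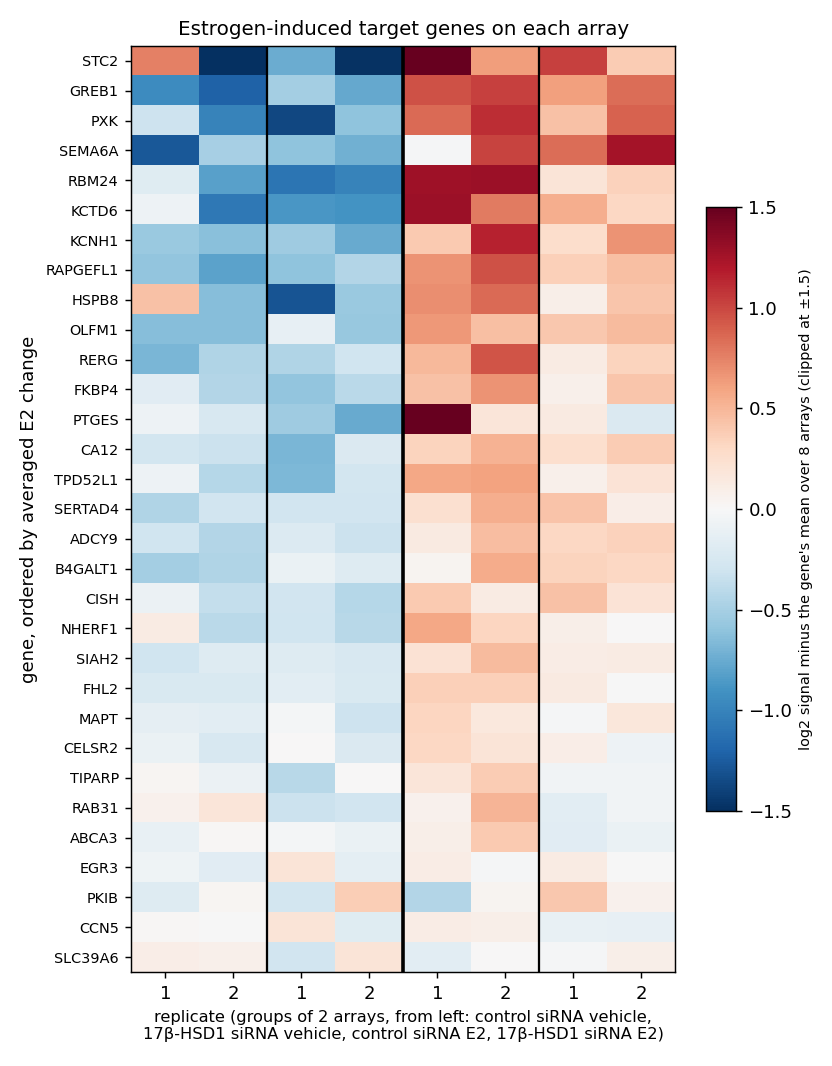
Signal of the 31 genes (rows, ordered by the averaged E2 difference) on the 8 arrays (columns, in 4 groups of 2), as log2 signal minus the gene's mean over the 8 arrays, with colours clipped at 1.5 either way. The 4 vehicle arrays on the left are below the gene mean and the 4 E2 arrays on the right above it for most rows, while the lowest rows, from TIPARP at 0.23 down to SLC39A6 at -0.04, show little difference.

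Among the 8 genes for transcription, RNA and ubiquitin, all 8 E2 differences were above 0 after each siRNA, with a median of 0.56 averaged over the siRNAs. GREB1, a chromatin-bound cofactor of the estrogen receptor, read 8.65 and 8.38 with vehicle and 10.54 and 10.61 with E2 after control siRNA, and 9.08 and 8.82 with vehicle and 10.20 and 10.43 with E2 after 17β-HSD1 siRNA. The E2 arrays of GREB1 lay far above the vehicle arrays after both siRNAs, and the gap was wider with control siRNA: the difference was 2.06 ± 0.17 (4.16-fold) there and 1.37 ± 0.17 (2.58-fold) after 17β-HSD1 siRNA. RBM24, an RNA-binding protein that regulates splicing, read 7.50 and 6.86 with vehicle and 8.95 and 8.96 with E2 after control siRNA, and 6.59 and 6.68, then 7.87 and 8.03, after 17β-HSD1 siRNA. Its E2 difference was 1.77 (3.42-fold) and 1.32 (2.49-fold), and the E2 arrays after 17β-HSD1 siRNA stood about 1 unit under those with control siRNA.

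KCTD6, an adaptor of cullin ubiquitin ligases, read 8.68 and 7.68 with vehicle and 10.03 and 9.53 with E2 after control siRNA, and 7.88 and 7.85, then 9.30 and 9.06, after 17β-HSD1 siRNA. Here the 2 control vehicle arrays were far apart, and the averaged E2 difference was 1.46 ± 0.20 (2.75-fold). The other members of the group moved less. SERTAD4, a SERTA domain protein, differed by 0.66 ± 0.12, SIAH2, a ubiquitin ligase, by 0.47 ± 0.11, and FHL2, a LIM domain cofactor, by 0.42 ± 0.10, and in all of these every E2 array exceeded every vehicle array. TIPARP, a mono-ADP-ribosyltransferase that represses the aryl hydrocarbon receptor, differed by 0.23 ± 0.12, and EGR3, an immediate early zinc finger factor, by 0.10 ± 0.11, with overlapping arrays. EGR3 signals were 6.39 to 6.75, below the median of the arrays.

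In the signalling group 6 of the 8 listed genes were measured, and all 6 averaged E2 differences were above 0. RAPGEFL1, related to the exchange factors of Rap GTPases, read 7.53 and 7.32 with vehicle and 8.80 and 9.08 with E2 after control siRNA, and 7.52 and 7.69, then 8.48 and 8.58, after 17β-HSD1 siRNA. Vehicle arrays were alike and the E2 arrays were lower after 17β-HSD1 siRNA, so that the difference was 1.51 ± 0.16 (2.86-fold) with control siRNA and 0.93 ± 0.16 (1.90-fold) after 17β-HSD1 siRNA. RERG, a Ras-like protein described as an inhibitor of growth in breast cells, had the same order of groups: 7.23 and 7.47 with vehicle and 8.41 and 8.86 with E2 after control siRNA, and 7.47 and 7.62, then 8.05 and 8.26, after 17β-HSD1 siRNA. Its E2 difference was 1.28 ± 0.18 (2.43-fold) and 0.61 ± 0.18 (1.53-fold).

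ADCY9, an adenylyl cyclase, differed by 0.67 with control siRNA and 0.59 after 17β-HSD1 siRNA, and CISH, a feedback inhibitor of cytokine signalling, by 0.48 and 0.68. Both had every E2 array above every vehicle array. RAB31, a GTPase of vesicle trafficking, differed little with E2 (0.19 ± 0.12), and PKIB, an inhibitor of protein kinase A, showed 0.04 ± 0.17 with the signs opposed between the siRNAs. PKIB signals, 6.11 to 6.96, were below the array medians.

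Of the 9 membrane, transport and scaffold genes 8 were measured, and 7 had an averaged E2 difference above 0. PXK, a kinase-like protein of the endosome, read 8.41 and 7.71 with vehicle and 9.56 and 9.82 with E2 after control siRNA, and 7.35 and 8.11, then 9.16 and 9.60, after 17β-HSD1 siRNA. The difference was nearly the same after either siRNA, 1.63 and 1.66 (averaged 1.64 ± 0.20, 3.12-fold). SEMA6A, a transmembrane semaphorin, read 6.80 and 7.57 with vehicle and 8.05 and 9.08 with E2 after control siRNA, and 7.47 and 7.35, then 8.91 and 9.32, after 17β-HSD1 siRNA. It is a member in which the E2 arrays were on average higher after 17β-HSD1 siRNA, though the ranges overlapped, and its E2 differences were 1.39 and 1.70. KCNH1, a voltage-gated potassium channel, showed 1.37 and 1.11.

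CA12, a membrane-bound carbonic anhydrase, differed by 0.72 and 0.77 and NHERF1, a PDZ scaffold of membrane transporters, by 0.59 and 0.40. CELSR2, a cadherin-type adhesion receptor, showed 0.42 with control siRNA and 0.12 after 17β-HSD1 siRNA, and ABCA3, a lipid transporter, 0.28 and -0.07. SLC39A6, a zinc transporter long known as estrogen-regulated, went against the label of the list: with control siRNA its vehicle arrays read 9.04 and 9.02 and its E2 arrays 8.78 and 8.95, both lower. After 17β-HSD1 siRNA its arrays overlapped, and the averaged E2 difference was -0.04 ± 0.12.

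Among the secreted proteins and biosynthetic enzymes, 4 of 5 averaged differences were above 0. STC2, a secreted stanniocalcin, read 10.42 and 7.59 with vehicle and 11.18 and 10.30 with E2 after control siRNA, and 8.92 and 8.19, then 10.69 and 10.05, after 17β-HSD1 siRNA. STC2 had the highest averaged E2 difference of the 31 genes, 1.78 ± 0.48 (3.43-fold), and also the widest SE: its control vehicle arrays were far apart, and within replicates the difference with control siRNA was 0.77 and 2.71. PTGES, a prostaglandin E synthase, read 8.83 and 8.67 with vehicle and 10.42 and 9.09 with E2 after control siRNA, and 8.38 and 8.15, then 9.04 and 8.69, after 17β-HSD1 siRNA. The first control E2 array set much of its E2 difference with control siRNA, which was 1.59 in replicate 1 and 0.41 in replicate 2.

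OLFM1, a secreted olfactomedin, differed by 1.2 with control siRNA and 0.79 after 17β-HSD1 siRNA, and B4GALT1, a galactosyltransferase of the Golgi, by 0.78 and 0.47. CCN5, a matricellular protein formerly named WISP2, differed by 0.09 and -0.12, and its 8 signals ran from 8.17 to 8.54 without separating the groups averaged over siRNAs.

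All 4 chaperone, cytoskeleton and trafficking genes had E2 differences above 0 after each siRNA. HSPB8, a small heat shock protein, read 10.62 and 9.54 with vehicle and 10.88 and 11.03 with E2 after control siRNA, and 8.88 and 9.62, then 10.27 and 10.60, after 17β-HSD1 siRNA. Both E2 arrays were the higher pair after each siRNA, and its averaged difference was 1.03 ± 0.23 (2.04-fold). FKBP4, a co-chaperone of steroid receptors, differed by 0.81 ± 0.12 (1.75-fold) and TPD52L1, of the D52 family of trafficking proteins, by 0.73 ± 0.13 (1.66-fold). MAPT, the microtubule-binding protein tau, differed by 0.32 ± 0.11, with its lowest E2 array at 7.68 and its highest vehicle array at 7.66.

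**Figure D2:**
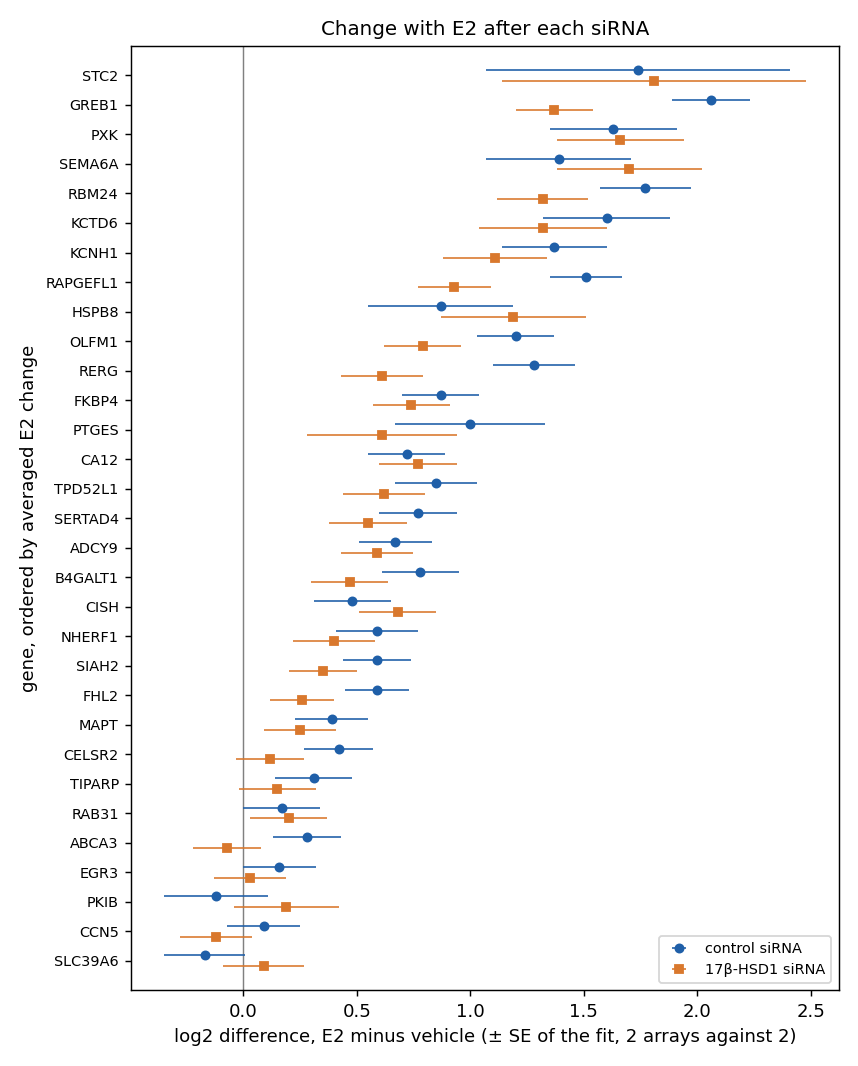
Difference between E2 and vehicle (x axis, log2, with bars of ± 1 SE of the fit, 2 arrays against 2) for each gene (y axis) after control siRNA (circles) and after 17β-HSD1 siRNA (squares). GREB1 at 2.06 and 1.37, RAPGEFL1 at 1.51 and 0.93 and RERG at 1.28 and 0.61 show the widest gaps between the symbols, and the genes at the bottom lie near 0 with both siRNAs.

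The design allows a test of whether the E2 difference itself differed between the siRNAs, and no gene on the arrays passed it. The median of this interaction over the 31 genes was -0.21, against 0.00 over all genes, and 22 were below 0, which is a smaller E2 difference after 17β-HSD1 siRNA, against 49.7% of all genes. It was -0.07 within replicate 1 and -0.32 within replicate 2, and 14 genes were below 0 in both replicates, 2 above 0 in both and 15 of opposite sign. The shares over all genes by replicate were not computed. No member was called, nor was any of the 18417 genes (0%), in the limma fit, and at an unadjusted p below 0.05 there were 140 of 21214 probe sets. The replicate block gave 0 calls as well. The 3 members under that unadjusted value were GREB1 (-0.69 ± 0.23), RERG (-0.67 ± 0.26) and RAPGEFL1 (-0.59 ± 0.23), each with a limma adjusted p of 1.

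The interaction of GREB1 was -0.77 within replicate 1 and -0.61 within replicate 2, that of RERG -0.59 and -0.75, and that of RAPGEFL1 -0.31 and -0.87. All 3 had both E2 arrays lower and a higher vehicle mean after 17β-HSD1 siRNA. The interaction and the siRNA difference in each medium share the control siRNA arrays with the E2 difference with control siRNA. A gene listed because its control E2 arrays were high or its control vehicle arrays low would therefore lean to a negative interaction, a negative siRNA difference in E2 and a positive one in vehicle by that choice alone. Which arrays were read for the genes added from these data is not known.

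By role, the interaction was below 0 in all 8 genes for transcription, RNA and ubiquitin (median -0.27) and in 4 of 5 secreted and biosynthetic genes (median -0.30). It was below 0 in 3 of 6 signalling genes and in 4 of 8 membrane genes, with medians of -0.02 and -0.08, and in 3 of 4 chaperone and cytoskeleton genes (median -0.13). In HSPB8, STC2 and PXK the replicates were opposed: within replicates 1 and 2 the interaction was 1.14 and -0.51 in HSPB8, 1.00 and -0.85 in STC2, and 0.66 and -0.61 in PXK.

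Averaged over the media, 24 of the 31 genes were lower after 17β-HSD1 siRNA, against 45.7% of all genes, with a median of -0.13 against 0.01. Only RBM24 was called, and it fell by 0.78 on the log2 scale (-0.78 ± 0.14, 0.584-fold, limma adjusted p = 0.0384, unadjusted p = 0.000149), which makes 1 of 31 against 0.239% of all genes called lower and 0.206% called higher. It was lower in both media and both replicates, by -0.91 and -0.18 within replicates in vehicle and by -1.08 and -0.93 in E2. The call depended on single arrays: the adjusted p ranged from 0.00861 to 0.204 when 1 array was left out, and stayed below 0.05 only without the second control siRNA array with vehicle. It was 0.0187 with the replicate block, 0.2 when all 33297 probe sets were tested and 0.0679 after a further quantile normalization.

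RAB31 was the only member whose 4 arrays with 17β-HSD1 siRNA all lay below the 4 with control siRNA, as 2.17% of all genes did, with 2.12% separated the other way. It read 7.72 and 7.84 with vehicle and 7.72 and 8.17 with E2 after control siRNA, and 7.34 and 7.37, then 7.50 and 7.61, after 17β-HSD1 siRNA. The averaged difference was -0.41 ± 0.12 and did not pass (adjusted p = 0.221). Averaged over the siRNAs, its E2 and vehicle arrays overlapped. A single separated member of 31 is close to the share over all genes.

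HSPB8 differed by -0.68 ± 0.23 (adjusted p = 0.307) and PTGES by -0.69 ± 0.23 (adjusted p = 0.312), and neither passed. Both depended on single arrays: PTGES had -1.02 without the second control siRNA array with E2, and HSPB8 -0.95 without the second control siRNA array with vehicle. Each of these fits leaves 1 array in that control group, the higher of a pair that lay far apart. The pair read 10.42 and 9.09 in PTGES and 10.62 and 9.54 in HSPB8. KCTD6 (-0.46 ± 0.20), TPD52L1 (-0.33 ± 0.13) and NHERF1 (-0.31 ± 0.13) were also under an unadjusted p of 0.05, with adjusted p from 0.396 to 0.482 for these 3. That made 7 members in all, beside 2003 of 21214 probe sets under that value in the limma fit. Among members above 0, SEMA6A (0.39 ± 0.22) and PKIB (0.28 ± 0.17) had the largest differences, with adjusted p of 0.684 and 0.701.

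In vehicle the siRNA difference had no common sign, with 17 genes below 0 and a median of -0.03, against 44.9% of all genes below 0 and a median of 0.02. Both 17β-HSD1 siRNA arrays were higher than both controls for 4 genes (GREB1, OLFM1, B4GALT1 and SERTAD4, against 11.4% of all genes) and lower for 3 (RAB31, PTGES and RBM24, against 12%). GREB1 differed by 0.43 ± 0.17 (unadjusted p = 0.0239, adjusted p = 0.827), with 0.43 in both replicates. HSPB8 differed by -0.83 ± 0.32, which was -1.75 within replicate 1 and 0.08 within replicate 2. No member was called, as no gene was (0%), in the limma fit. With the replicate block 23 genes were called higher and 6 lower, with 0 members among them. Without the block 1157 of 21214 probe sets had an unadjusted p below 0.05, among them 4 members.

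In E2 the siRNA difference was below 0 in 24 of 31 genes (50.8% of all genes), with a median of -0.30 against 0.00 over all genes. Below 0 in both replicates were 21 members, a share not computed over all genes. For 17 genes both 17β-HSD1 siRNA arrays lay below both controls, against 19.9% of all genes, and for 1, PKIB, above them, against 18.3%. The differences were -1.01 ± 0.20 for RBM24 (0.498-fold, adjusted p = 0.239), -0.89 ± 0.33 for PTGES, -0.60 ± 0.28 for KCTD6 and -0.52 ± 0.32 for HSPB8, followed by -0.47 ± 0.18 for RERG, -0.45 ± 0.18 for TPD52L1 and -0.41 ± 0.16 for RAPGEFL1. All 7 were lower in both replicates. In PTGES it was -1.38 within replicate 1 and -0.39 within replicate 2. None of these passed the limma threshold, nor did any gene (0%). With the replicate block 31 genes were called higher and 3 lower, again with 0 members among them. Without the block 977 of 21214 probe sets, 8 members among them, had an unadjusted p below 0.05. Without the second control siRNA array with E2, the difference of PTGES was -1.55, with the higher control E2 array alone left in that group.

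**Figure D3:**
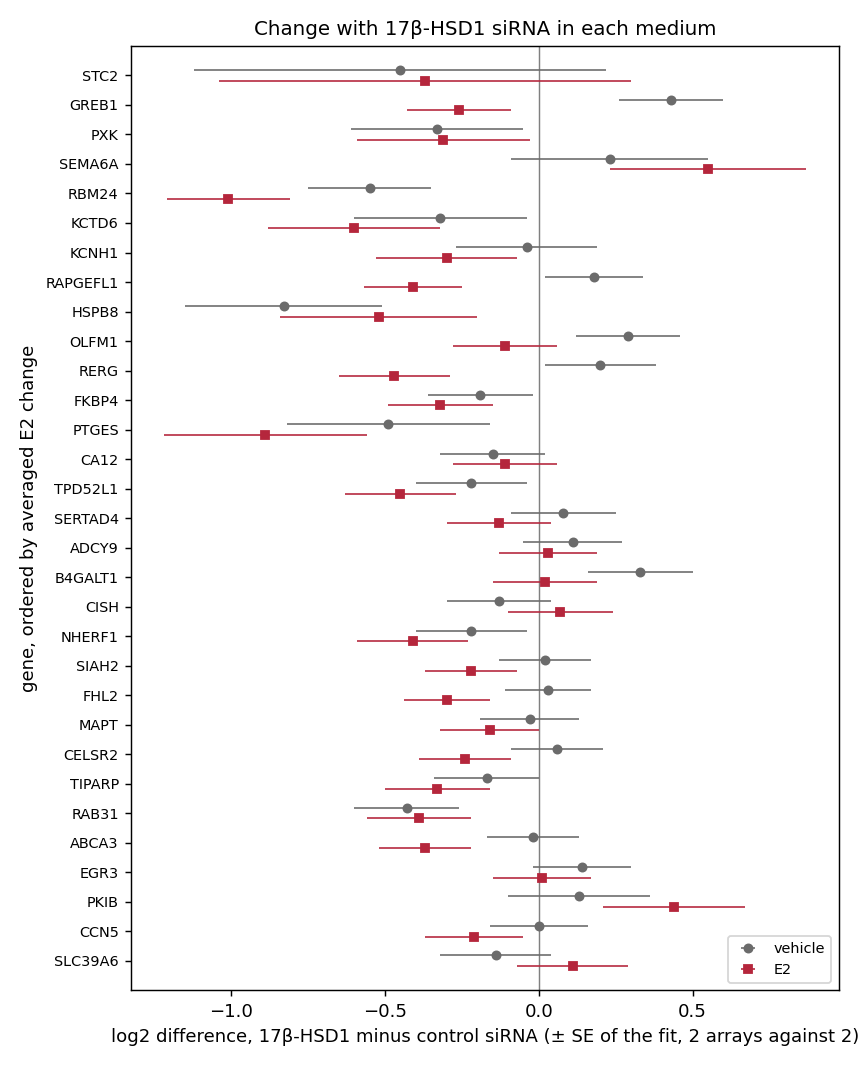
Difference between 17β-HSD1 siRNA and control siRNA (x axis, log2, with bars of ± 1 SE of the fit, 2 arrays against 2) for each gene (y axis) in vehicle (circles) and in E2 (squares). RBM24 lies at -0.55 and -1.01, and GREB1, RERG and RAPGEFL1 lie above 0 in vehicle (0.43, 0.20 and 0.18) and below it in E2 (-0.26, -0.47 and -0.41).

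**Figure D4:**
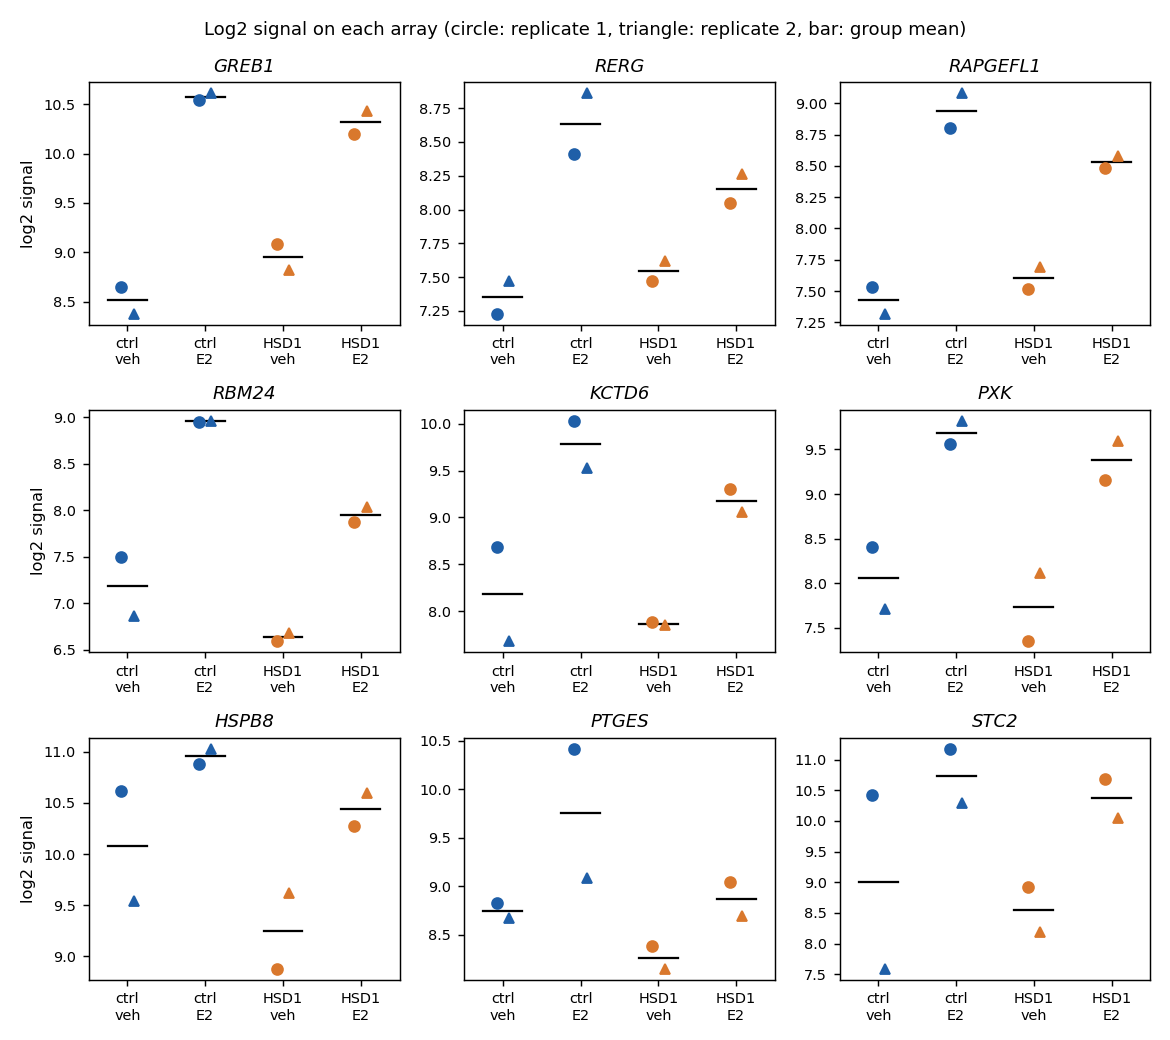
Log2 signal (y axis, a separate range in each panel) of 9 genes in the 4 groups (x axis: ctrl is control siRNA, HSD1 is 17β-HSD1 siRNA, veh is vehicle), with circles for replicate 1, triangles for replicate 2 and a line at the group mean. GREB1, RERG and RAPGEFL1 have lower E2 arrays after 17β-HSD1 siRNA with vehicle arrays level or higher, RBM24 is lower in both media, and STC2 has control vehicle arrays at 10.42 and 7.59.

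Other signals moved with the siRNA on the same arrays. The mean of 12 interferon response genes was 8.58 and 9.11 with vehicle and 8.48 and 9.93 with E2 after control siRNA, and 10.06 and 10.77, then 10.55 and 10.83, after 17β-HSD1 siRNA. In the averaged siRNA difference (median 1.51 over the 12) 5 of the 12 were called higher, against 0.206% of all genes. The mean of 12 cell cycle genes, none of them a member, was 8.71 and 8.89, 9.59 and 9.87, 8.25 and 8.07, and 9.12 and 9.19 in the same order. Their averaged siRNA difference had a median of -0.62, with 6 of 12 called lower, against 0.239% of all genes. The part of either set in the members' siRNA differences was not tested. On the array that differed most from the rest the luminal marker mean was 11.57, the lowest of the 8, and the basal, fibroblast, immune and endothelial means were 7.74, 7.03, 6.50 and 6.43, the highest of the 8. Without that array the members' medians were -0.14 for the averaged siRNA difference, -0.02 in vehicle and -0.19 for the interaction.

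Beside the members stand the 257 genes of all kinds that were called higher with E2 averaged over the siRNAs, 17 of them members. The 257 include all 12 listed cell cycle genes, a kind that was kept out of the members. Averaged over media 248 of the 257 (96.5%) were lower after 17β-HSD1 siRNA, with a median of -0.43. That was so in vehicle for 240 (93.4%, median -0.46) and in E2 for 247 (96.1%, median -0.39). The interaction was below 0 in 91 of them (35.4%, median 0.06). Over all genes the shares below 0 were, in the same order, 45.7%, 44.9%, 50.8% and 49.7%. The members' medians for the same 4 quantities were -0.13, -0.03, -0.30 and -0.21, and the difference between the sets was not tested.

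A second list held 40 further estrogen-induced genes, 39 of them measured. Their averaged E2 difference had a median of 0.34, with 7 called higher, against 1.4% of all genes. The list was drawn up with earlier results of these data known, so that count describes it and tests nothing. The averaged siRNA difference of these genes had a median of -0.13, with 26 below 0, against 45.7% of all genes, and 0 called. The interaction had a median of -0.02. By a rule that names the largest E2 differences, these were CXCL12, a chemokine (3.07 ± 0.22), MYBL1, a MYB family factor (1.85 ± 0.16), NPY1R, a neuropeptide Y receptor (1.26 ± 0.24), MYC (1.17 ± 0.33), PGR, the progesterone receptor (1.04 ± 0.13), and ELOVL2, a fatty acid elongase (0.97 ± 0.16). The smallest p of the averaged siRNA difference belonged to MYBL1 (-0.64 ± 0.16, adjusted p = 0.147), MREG (-0.55 ± 0.17, adjusted p = 0.239), ANXA9 (-0.36 ± 0.12, adjusted p = 0.287) and CXCL12 (-0.67 ± 0.22, adjusted p = 0.307). The interactions of the 6 genes with the largest E2 differences were 0.07 for CXCL12, 0.25 for MYBL1, 0.35 for NPY1R, 0.03 for MYC, 0.00 for PGR and -0.49 for ELOVL2, and none passed.

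Of 20 genes of the estrogen receptor machinery, 15 were measured and none was called in the averaged E2 or the averaged siRNA difference in the limma fit, whose medians over the list were both 0.03. ESR1, the receptor itself, read 8.6 and 8.77 with vehicle and 8.89 and 9.13 with E2 after control siRNA, and 8.05 and 8.47, then 8.61 and 8.96, after 17β-HSD1 siRNA. It had the largest averaged E2 difference of this list, 0.43 ± 0.13 (adjusted p = 0.23), and a siRNA difference of -0.32 ± 0.13 (adjusted p = 0.463). TFAP2C (0.39 ± 0.16), HSP90AB1 (0.28 ± 0.11) and PTGES3 came next in the E2 difference. The smallest p of the averaged siRNA difference were those of PTGES3, a co-chaperone of the receptor (-0.51 ± 0.14, adjusted p = 0.175), HSP90AA1, a heat shock protein that holds it (-0.42 ± 0.13, adjusted p = 0.253), FOXA1, its pioneer factor (0.35 ± 0.12, adjusted p = 0.307), and NCOA2, a coactivator (0.32 ± 0.11, adjusted p = 0.34).

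Genes beside the members on the chromosome, taken in RefSeq order and described after their values were seen, mostly did not share the E2 difference. PXK and KCTD6 lie on chromosome 3 with only PDHB between them, and SERTAD4 and KCNH1 on chromosome 1 with only HHAT between them. PDHB, a pyruvate dehydrogenase subunit, differed with E2 by 0.54 (adjusted p = 0.136), and RPP14 and ACOX2 on the outer sides by 0.44 and 0.31 (adjusted p = 0.316 and 0.315). HHAT differed by 0.04. Of 56 measured flanking genes 28 were above 0, against 41.9% of all genes, with a median of 0.01 against -0.02. In the limma fit 2 were called higher, against 1.4% of all genes: CAP2 beside RBM24 (0.67, adjusted p = 0.0233) and SPINK4 beside B4GALT1 (0.73, adjusted p = 0.00922).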

How the data were processed

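Total RNA of T47D cells was labelled from 0.2 µg and 2.7 µg of cDNA was hybridised, per the labels' protocols. The table deposited by the authors holds log2 signals of 33297 probe sets (2.42 to 15.16), a scale read from the values; how it was summarised and normalized is not given in the sources used here. The platform annotation supplied gene names: 19460 probe sets have 1 symbol, 1754 several and 12083 none. The 21214 with at least 1 symbol were tested, and each gene was read from its brightest probe set of 1 symbol (by mean over the 8 arrays). Group means were fitted on all 8 arrays with limma 3.58.1 (R 4.3.3; lmFit and eBayes, 7 contrasts, 4 residual degrees of freedom), with Benjamini-Hochberg adjustment over those probe sets and calls at 0.05. The fit was run on simulated data with independent noise, no outlying array and no replicate structure. That run checks the code and says nothing about these arrays. With 2 arrays a group, their number limits the precision.

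The members, lists and roles were chosen with earlier results of these data known. All members may be named; from the other lists, genes called in the averaged siRNA difference or the interaction, the 4 with the smallest p there and the 6 with the largest averaged E2 difference.

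Per the labels, replicates come from 2 independent cell culture experiments, which the replicate number was taken to mark. Deviations of same-numbered arrays from their group means correlated at 0.44 (control vehicle with control E2), 0.42 (knockdown vehicle with knockdown E2), 0.31 (control E2 with each knockdown group), 0.01 (control vehicle with knockdown E2) and -0.20 (control vehicle with knockdown vehicle). Alternatives were the block, all probe sets, a filter at the 30th percentile, quantile normalization, a trended robust spread, means over probe sets, fits on 4 arrays, and leaving out each array.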

Additional observations from a re-analysis of the deposited data

How the results depend on the processing

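The number of members called moved with the processing as follows. For the averaged E2 difference it was 17, 8 with all probe sets tested, and 10 to 17 when 1 array was left out. For E2 with control siRNA it was 5, 1 with all probe sets, 3 after quantile normalization, 10 with the replicate block, 0 in a fit on the 4 arrays compared, and 1 to 6 without 1 array. For E2 after 17β-HSD1 siRNA it was 4, 0 with all probe sets, 1 after quantile normalization, 9 on the 4 arrays, and 0 to 7 without 1 array. For the averaged siRNA difference it was 1, 0 with all probe sets or after quantile normalization, and 0 to 2 without 1 array; in E2 it was 0, and 0 to 1 without 1 array. For the siRNA difference in vehicle and the interaction no alternative gave a call. Over all genes, calls of higher signal moved too, also when 1 array was left out. Averaged E2 gave 257, and 82 with all probe sets. With control siRNA it was 13, 1 with all probe sets and 5 after quantile normalization. It was 84 with the replicate block and 0 on the 4 arrays. After 17β-HSD1 siRNA it was 52, 0 with all probe sets, 29 after quantile normalization and 87 on the 4 arrays. For the averaged siRNA difference, 44 were called lower, 0 with all probe sets and 31 after quantile normalization. For each of these changes in a count the cause was not tested. No called value changed sign. Uncalled values changed sign in 31 of 434 for the interaction, 16 of 434 for the averaged siRNA difference, 24 of 465 in vehicle and 10 of 465 in E2. The median of the siRNA difference in vehicle ran from -0.04 to 0.02 without 1 array and that of the interaction from -0.28 to -0.10. Beside the E2 count given, the replicate block added calls for FHL2, NHERF1, PTGES, SIAH2 and STC2 (averaged E2) and KCTD6 and SEMA6A (E2 after 17β-HSD1 siRNA), and changed no siRNA or interaction call. Since E2 values chose part of the list, these E2 calls show only how the fit moved and are no evidence for a gene. All 31 genes passed the filter on dim probe sets, and the SE of a member's averaged siRNA difference ran from 0.10 to 0.48, which limits what could be called.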
